A study of Mus musculus with 166 samples.

Results

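The comparison described here set cerebellar small RNA of mice aged 6 months against that of mice aged 2 months, in 4 heterozygous *Htt* knock-in lines. It held 64 libraries, 38.6% of the series, with 32 at 6 months and 32 at 2 months, chosen by their labels as the lines Q20, Q80, Q92 and Q111. Each mouse carried 1 wild-type *Htt* allele and 1 knock-in allele with a CAG tract named by its nominal length (20, 80, 92 or 111), on the C57BL/6 background, and was housed with mice of its own line. Q20 served as a control line in the study. The paper describes a knock-in of human *HTT* exon 1 in each line, but lists the 4 lines as separate *Htt* alleles. A comparison of lines is therefore not one of repeat length alone. Each line gave 8 libraries at each age, 4 of females and 4 of males, except Q80 at 2 months with 3 females and 5 males. The cerebellum was frozen and its RNA taken once from each mouse, so that the animals of the 2 ages were different. The question put to these libraries was which microRNAs differ between the ages in mice of the same line, and whether the difference depends on line, CAG length or sex. Wild-type and Q175 mice of 6 months belonged to another library series and were not part of the comparison, and the Q140 line (8 libraries at each age) was fitted apart.

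MicroRNAs are short RNAs cut from hairpin precursors. One strand of the hairpin stem is loaded into Argonaute and pairs with messenger RNAs mainly through its seed, bases 2 to 8 from the 5′ end, which lowers their translation or stability. MicroRNAs that share a seed form a family with overlapping targets, and hairpins that lie close together are often cut from a common transcript. In the rodent cerebellum granule cells finish their production and migration in the first postnatal weeks, so both ages lie after that stage.

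Mature sequences are shown for some of the microRNAs described below, several of which share a seed, and for *Mirlet7c-1* as a neighbour of *Mir99a*. They were chosen after the levels had been seen. The sequences come from RefSeq (GRCm38.p6), which held mature sequences for 73.6% of the 416 features tested. The arm shown is the one known as the more abundant, while the deposited values count the hairpin as a whole. Capitals mark the seed.
Mir99a, miR-99a-5p: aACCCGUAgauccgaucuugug
Mir99b, miR-99b-5p: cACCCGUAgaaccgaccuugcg
Mir100, miR-100-5p: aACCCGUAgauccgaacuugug
Mir125a, miR-125a-5p: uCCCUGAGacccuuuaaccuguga
Mir125b-1 and Mir125b-2, miR-125b-5p: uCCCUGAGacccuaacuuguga
Mir128-1 and Mir128-2, miR-128-3p: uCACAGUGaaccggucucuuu
Mir217, miR-217-5p: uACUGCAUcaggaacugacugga
Mir501, miR-501-3p: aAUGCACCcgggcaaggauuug
Mir29a, miR-29a-3p: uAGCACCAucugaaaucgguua
Mir29b-1 and Mir29b-2, miR-29b-3p: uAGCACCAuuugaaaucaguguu
Mir29c, miR-29c-3p: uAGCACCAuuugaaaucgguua
Mir130a, miR-130a-3p: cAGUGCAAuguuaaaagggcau
Mirlet7c-1, let-7c-5p: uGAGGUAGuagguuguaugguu
The first 3 share the seed ACCCGUA, the 3 loci of miR-125a and miR-125b share CCCUGAG, and the 4 loci of miR-29 share AGCACCA. Both miR-128 loci give the same mature RNA, as do both miR-125b loci and both miR-29b loci, so that a read of that length cannot be assigned to 1 locus and the split between them in the counts is uncertain.

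Levels are given as CPM, counts scaled to a common library total with TMM factors. Total counts ranged from 3094703 to 6093394 per library at 6 months and from 3293523 to 6096597 at 2 months. At 2 months 3 libraries stood far from the rest of their age in standardized connectivity (Q20 M4, Q80 F1 and Q111 M3) and were left out of the fits, which used 32 libraries of 6 months and 29 of 2 months, but they are included in every range of levels. The library names put the ages in separate ranges of library numbers: the 2-month libraries were labelled lane 1 or lane 2 (16 each), 16 of the 6-month libraries had lower numbers than these and were also labelled lane 1, 3 had the lowest numbers and lane 8, and 13 had higher numbers than the 2-month libraries and lane 8. Age and library block therefore cannot be told apart in this design. As a gauge of blocks within an age, the 13 higher-numbered 6-month libraries differed from the 16 of lane 1 in 52 of 416 features (12.5%), and the 2 lanes of the 2-month libraries differed in 3 of 416 (0.721%; edgeR, FDR<0.05). Of the 52, 44 were also called between the ages. Their median size was 0.60 on the log2 scale, and 11 exceeded 1. These block fits held fewer libraries than the fit of age, so their shares of calls cannot be set directly against its share. The 26 neuronal microRNAs of the list used, miR-124, miR-9 and miR-128 among them, were all detected, with a summed level of 63232 to 81112 CPM (median 72018) at 6 months and 72323 to 101505 CPM (median 88826) at 2 months. Markers of choroid plexus varied strongly between libraries of both ages. *Mir1298*, in an intron of the choroid plexus gene *Htr2c*, spanned 13.5 to 948.4 CPM (median 256.3) at 6 months and 9.2 to 1959.8 CPM (median 27.5) at 2 months, and 0 of the 7 choroid plexus members passed the test between ages. The median fitted difference of these 7 was 0.54 on the log2 scale.

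Of the 416 features tested, 63.5% differed between 6 and 2 months at FDR<0.05 (edgeR quasi-likelihood, line and sex as covariates), 128 (30.8%) being higher and 136 (32.7%) lower at 6 months. Most differences were small: the median size among these calls was 0.30 on the log2 scale, 200 were under 0.5, and 22 exceeded 1, of which 17 were lower and 5 higher at 6 months. The median difference of all 416 was -0.011. In 21 features (5.05%) the 32 libraries of 6 months and the 32 of 2 months did not overlap, 15 of them lower and 6 higher. Among the 336 features with an annotated *Mir* gene, 119 were higher and 99 lower. Tissue was analysed in bulk, so fewer cells of a type and less RNA per cell cannot be told apart in any of these values.

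**Figure D1:**
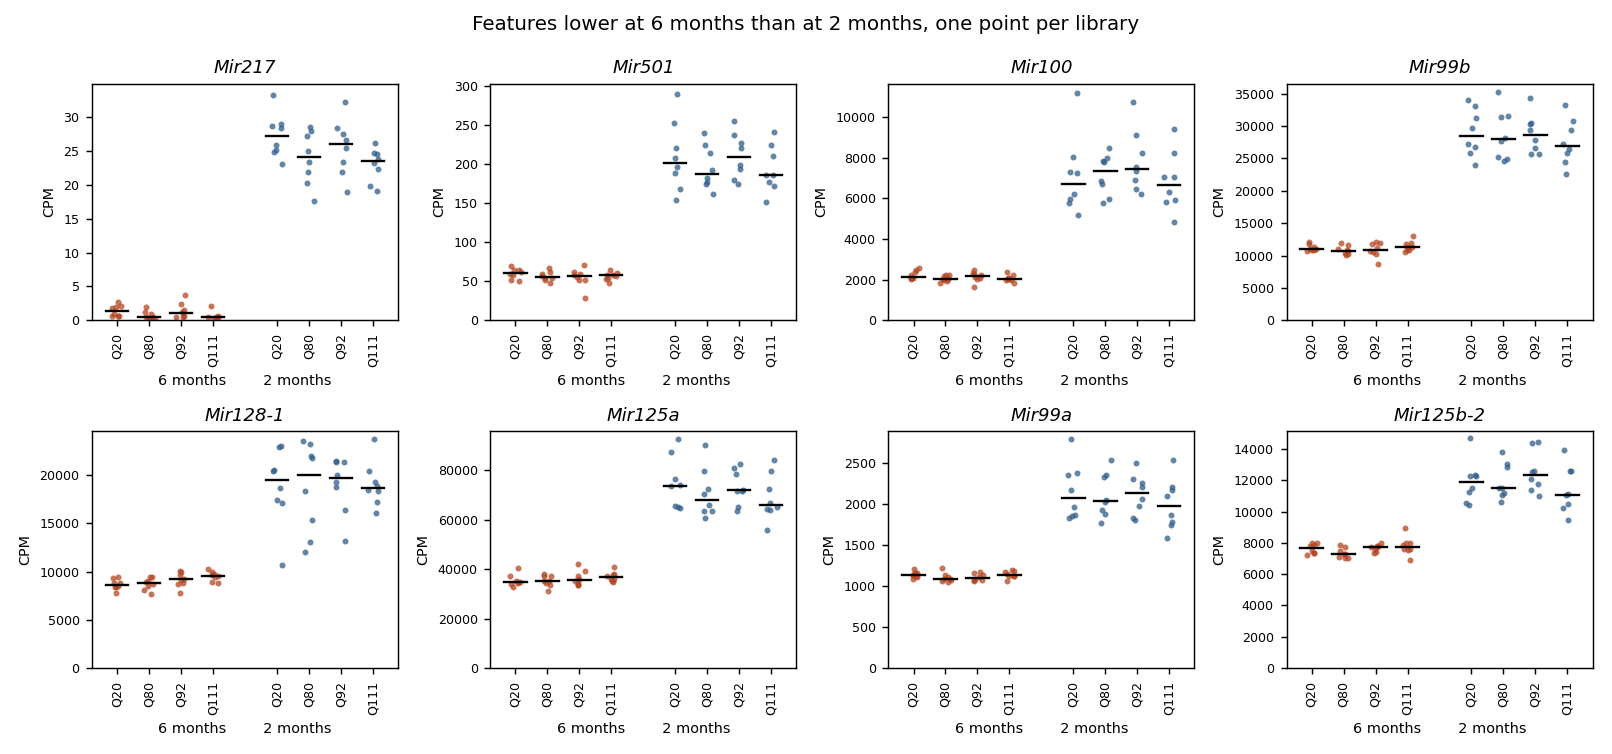
Levels in CPM of 8 features lower at 6 months, with 1 point for each of the 64 libraries, red for 6 months (left) and blue for 2 months (right), and bars at the median of each line. In all 8 panels every 6-month library lies below every 2-month library, in each of the 4 lines.

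The family of miR-99, miR-100 and miR-125 was lower at 6 months in all 6 of its loci, with a median difference of -0.92 on the log2 scale against -0.011 over all features. miR-100 and its relatives are known for repressing *Mtor* and insulin-like growth factor signalling, and miR-125 is the mammalian counterpart of lin-4, which was found in worm developmental timing. *Mir99b* (chr17:17830188-17830257, in an intron of *Spaca6*) ranged over 8663 to 13003 CPM (median 11024) at 6 months, against 22636 to 35232 CPM (median 27809.7) at 2 months. The groups did not overlap, the difference was -1.34 ± 0.034 (log2, SE, FDR 1.2e-40), and no other feature had a lower FDR. *Mir125a*, on the same *Spaca6* transcript, measured 31363 to 42119 CPM (median 35289.5) at 6 months, against 55982 to 92762 CPM (median 71755) at 2 months, a difference of -0.97 ± 0.032 (log2, SE, FDR 3.3e-35). Both members of this pair therefore separated the ages completely, with *Mir99b* shifted further than *Mir125a*.

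*Mir100* (chr9:41531425-41531504), within the non-coding gene *3110039I08Rik*, measured 1625 to 2596 CPM (median 2080.3) at 6 months, against 4844 to 11171 CPM (median 7038) at 2 months. Its difference of -1.72 ± 0.052 (log2, SE, FDR 3.8e-37) was the largest of the family. *Mir99a* (chr16:77598936-77599000), an intronic hairpin of *Mir99ahg*, measured 1048 to 1221 CPM (median 1121) at 6 months, against 1584 to 2799 CPM (median 2055) at 2 months, with a difference of -0.87 ± 0.031 (log2, SE, FDR 2.4e-33). The 6-month libraries held a narrow band in both, while the 2-month libraries spread more widely above it. The loci of miR-125b had differences of -0.76 (*Mir125b-1*) and -0.62 (*Mir125b-2*), and their sum, which does not depend on how reads were split between them, was 7986 to 10200.2 CPM (median 8779) at 6 months, against 10919.9 to 17729 CPM (median 13579.6) at 2 months. That sum differed by -0.66 (mean log2 difference), with a two-sided permutation p of 1e-05 over 64 libraries, the smallest that 100000 permutations can give. The permutation took no account of line, sex or library block, and both loci were already called in these libraries. Its p is therefore no independent support, which holds for the sums of other loci below as well. *Mir351*, which shares the miR-125 seed and lies on the X chromosome, had medians of 75.3 CPM at 6 months and 96.8 CPM at 2 months and a difference of -0.28 (edgeR FDR 3.5e-06), with overlapping ranges.

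The loci of *Mir99a*, *Mir125b-2*, *Mir100* and *Mir125b-1* each lie beside a let-7 hairpin. Between *Mir99b* and *Mir125a* the table holds *Gm25927*, a feature of the opposite strand over the hairpin of *Mirlet7e*, which had medians of 2033 CPM at 6 months and 1995 CPM at 2 months and a difference of 0.06 (edgeR FDR 0.011), with FDR 0.89 against the higher-numbered 6-month libraries alone. *Mirlet7c-1*, close to *Mir99a* in *Mir99ahg*, measured 4239 to 6698 CPM (median 5623) at 6 months, against 3699.6 to 5392 CPM (median 4549.6) at 2 months and was higher by 0.31 ± 0.036 (log2, SE, edgeR FDR 5.1e-11). *Mirlet7a-2*, which lies between *Mir100* and *Mir125b-1*, had a fitted difference of 0.17 (edgeR FDR 0.01) whose direction turned with the 6-month libraries used, at 0.36 (FDR 3e-09) against the lower-numbered and -0.15 (FDR 0.0083) against the higher-numbered set, so no direction is given for it. Both let-7 loci share at least 18 nt with other let-7 copies, so their counts may hold reads of those copies. let-7 microRNAs accumulate as cells differentiate and repress growth genes such as *Hmga2* and *Lin28*.

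Neighbours were also compared by their log2 ratio (CPM + 1) within each library. The ratio of *Mir99a* to *Mirlet7c-1* was -2.52 to -1.96 (median -2.32) at 6 months, against -1.58 to -0.56 (median -1.08) at 2 months. The ratio of *Mir100* to *Mirlet7a-2* was 0.15 to 1.42 (median 0.64) at 6 months, against 2.00 to 3.32 (median 2.51) at 2 months. Neither ratio overlapped between the ages. The ratio of *Mir125b-2* to *Mirlet7c-1* was also apart, with medians of 0.44 at 6 months and 1.41 at 2 months, and that of *Mir125b-1* to *Mirlet7a-2* overlapped slightly (medians -0.18 at 6 months and 0.69 at 2 months). The mean differences of these 4 ratios were -1.16, -1.87, -0.92 and -0.92. The pairs were chosen after the levels had been seen, so the ratios are a description and carry no test.

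**Figure D2:**
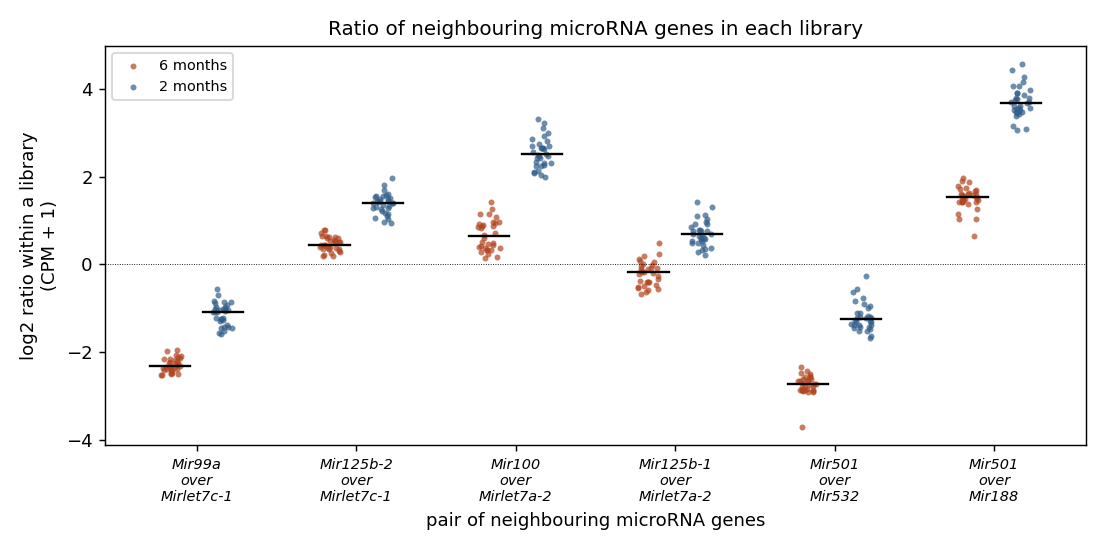
Log2 ratio of neighbouring microRNA genes within each library (CPM + 1), with 32 libraries at 6 months (red, left of each pair) and 32 at 2 months (blue, right), and bars at the medians. All 6 ratios are lower at 6 months, and the ages overlap only for *Mir125b-1* over *Mirlet7a-2*.

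The largest relative fall was that of *Mir217*, a microRNA best known from the exocrine pancreas. It lies in an intron of the non-coding gene *Gm12082* at chr11:28763728-28763835, near *Mir216a* and *Mir216b*. *Mir217* measured 0 to 3.78 CPM (median 0.677) at 6 months, against 17.6 to 33.3 CPM (median 24.9) at 2 months. All 32 libraries of 2 months held it and all 32 of 6 months were far below them, with a difference of -4.51 ± 0.162 (log2, SE, edgeR FDR 1.9e-33). At the depth of these libraries the 6-month median corresponds to a few reads, so the size of the ratio is uncertain. *Mir216a* had medians of 0.456 CPM at 6 months and 4.12 CPM at 2 months and a difference of -3.27 ± 0.184 (log2, SE, edgeR FDR 1.2e-23), again with no overlap. *Mir216b* had medians of 0.464 CPM at 6 months and 2.21 CPM at 2 months, -2.20 on the log2 scale (edgeR FDR 1.1e-13), with ranges that met. *Mir375*, a marker of pancreatic islets and other endocrine cells, showed no such pattern. Its medians were 37.9 CPM at 6 months and 25.6 CPM at 2 months, a difference of 0.32 ± 0.221 (log2, SE, edgeR FDR 0.2). The 3 members of the *Mir217* locus were the same in direction in every line, from -5.15 in Q111 to -4.06 in Q92 for *Mir217*. With 6-month medians of 0.677, 0.456 and 0.464 CPM, these 3 passed the expression filter by their 2-month levels. Their common direction is therefore no independent support.

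*Mir501*, in an intron of the X-linked chloride channel gene *Clcn5* (chrX:7241243-7241351), differed by -1.79 ± 0.056 (log2, SE, edgeR FDR 1.9e-36). Its mature 3p strand is known in neurons for repressing the glutamate receptor subunit gene *Gria1*. It measured 28.5 to 70.2 CPM (median 57.6) at 6 months, against 151.7 to 289.8 CPM (median 194.7) at 2 months, without overlap. The same intron region gives 4 other microRNAs that were tested, and none came near this shift. *Mir362* (-0.30) and *Mir532* (-0.25) were lower, while *Mir500* (0.15) and *Mir188* (0.44) were higher, all at FDR<0.05, a call that *Mir500* lost against the higher-numbered 6-month libraries alone (FDR 0.16). Within libraries the log2 ratio of *Mir501* to *Mir188* was 0.64 to 1.97 (median 1.53) at 6 months, against 3.07 to 4.57 (median 3.69) at 2 months. Its ratio to *Mir532* was -3.71 to -2.35 (median -2.74) at 6 months, against -1.68 to -0.27 (median -1.25) at 2 months. Neither overlapped between ages.

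A comparable split appeared in the sensory cluster of *Mir183*, *Mir96* and *Mir182*, hairpins of a common transcript known from hair cells and photoreceptors. *Mir96* measured 1.36 to 9.78 CPM (median 3.64) at 6 months, against 7.87 to 37.4 CPM (median 13.3) at 2 months , ranges that met at their edges, and differed by -1.74 ± 0.168 (log2, SE, edgeR FDR 8.9e-14). *Mir183* and *Mir182* did not pass the test, with differences of -0.04 ± 0.238 (log2, SE, FDR 0.9) and -0.16 ± 0.212 (log2, SE, FDR 0.52). These 2 spread widely over the libraries of each age, up to 3167 CPM at 6 months and 3990.1 CPM at 2 months for *Mir182*. The within-library log2 ratio of *Mir96* to *Mir183* had medians of -3.69 at 6 months and -2.22 at 2 months, a mean difference of -1.42, and overlapped between ages.

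The brain-enriched miR-128, which damps neuronal excitability in mice, was lower at both of its loci. *Mir128-1* (chr1:128202361-128202430, in an intron of *R3hdm1*) measured 7709 to 10272 CPM (median 8957) at 6 months, against 10702 to 23743 CPM (median 19103) at 2 months, and *Mir128-2* (chr9:112118636-112118711, in an intron of *Arpp21*) measured 3158 to 3974 CPM (median 3506) at 6 months, against 4347 to 5623 CPM (median 4971) at 2 months. Neither overlapped between ages. The differences were -1.08 ± 0.047 (log2, SE, edgeR FDR 3.8e-29) and -0.49 ± 0.022 (log2, SE, edgeR FDR 8.7e-29). As reads of the common mature RNA cannot be assigned, the sum of both loci is the firmer value. It was 10867 to 14156 CPM (median 12443) at 6 months, against 15429.7 to 29158 CPM (median 24208) at 2 months, -0.92 on the log2 scale (permutation p of 1e-05).

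In the neuronal list of 26 microRNAs, which holds both *Mir128* loci, 8 were higher, 10 were lower and 8 did not pass the test, beside 30.8% higher and 32.7% lower over all features, with a median of -0.05. Against each of the 2 sets of 6-month libraries taken alone, 4 were higher and 9 lower in both, where 20.4% and 20.9% of all features were. Both sets were compared with the same 2-month libraries, so the 2 comparisons are not independent and do not cover blocks of that age. That limit holds wherever both sets are used below. The 3 tested loci of miR-124, the defining microRNA of neurons, were among those that did not pass. *Mir124a-1* had medians of 10678 CPM at 6 months and 11319 CPM at 2 months, -0.04 ± 0.029 (log2, SE, edgeR FDR 0.23). *Mir346*, in an intron of the glutamate receptor delta gene *Grid1*, measured 11 to 19.5 CPM (median 15.4) at 6 months, against 20.8 to 44.2 CPM (median 26.4) at 2 months, with no overlap and a difference of -0.84. *Mir9-2* (-0.14), *Mir9-3* (-0.24), *Mir218-2* (-0.31) and *Mir137* (-0.36) were lower too. On the other side, *Mir598* (0.34), *Mir138-2* (0.28) and *Mir149* (0.17) were higher. Outside the list, *Mir92b*, known from neural progenitors, measured 5389 to 6724 CPM (median 5897) at 6 months, against 7297 to 10631 CPM (median 8601) at 2 months, a difference of -0.51 ± 0.017 (log2, SE, edgeR FDR 8e-35) with no overlap. The activity-regulated pair *Mir132* and *Mir212*, hairpins of a common transcript that is induced by CREB in neurons, moved in opposite directions, *Mir132* by 0.11 (FDR 0.0006) and *Mir212* by -0.23 (FDR 8.3e-07).

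Of the 12 largest falls, 5 rest on features that also differ between 6-month library blocks or vary strongly among libraries. *Mir3963* measured 87.6 to 336.5 CPM (median 145.8) at 6 months, against 185.7 to 734.6 CPM (median 437.6) at 2 months, and its median was 234.3 CPM in the higher-numbered 6-month libraries and 124.2 CPM in those of lane 1. Against the 2-month libraries its difference was -0.77 with the higher-numbered set alone and -1.75 with the lower-numbered libraries alone. The other 4 are transcripts without an entry in the annotation, named here only by their number and given no role: ENSMUST00000175045 (-1.29), ENSMUST00000175620 (-1.23), ENSMUST00000175457 (-1.02) and ENSMUST00000176833 (-1.07). The last lost its call without Q80 (-0.78, edgeR FDR 0.071), in females alone (-0.29, FDR 0.47) and against the higher-numbered 6-month libraries alone (-0.58, FDR 0.23). ENSMUST00000175045 had medians of 301.02 and 127.96 CPM in the higher-numbered and the lane 1 sets of 6 months, against 475.1 and 496.3 CPM on the 2-month lanes.

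The miR-29 family was higher at 6 months at all 4 loci, with a median difference of 0.52. miR-29 represses genes of the extracellular matrix and DNA methyltransferases, and in neurons it restrains BH3-only apoptosis genes. *Mir29c* (chr1:195037547-195037634) measured 1670.0 to 2193 CPM (median 1882) at 6 months, against 961.5 to 1197 CPM (median 1105) at 2 months. Its difference was 0.80 ± 0.022 (log2, SE, edgeR FDR 3.2e-39), the lowest FDR among the rises, and the groups did not overlap. *Mir29a* (chr6:31062660-31062747) measured 11132 to 14240.4 CPM (median 12763) at 6 months, against 7754 to 10207 CPM (median 9216) at 2 months, also without overlap, a difference of 0.49 ± 0.019 (log2, SE, edgeR FDR 2.4e-31). The 2 loci lie on different chromosomes, each beside a copy of miR-29b. *Mir29b-2*, next to *Mir29c*, measured 184.9 to 258.5 CPM (median 208.1) at 6 months, against 115.5 to 175.02 CPM (median 144.1) at 2 months, 0.56 on the log2 scale. *Mir29b-1*, next to *Mir29a*, had medians of 48.4 CPM at 6 months and 40.3 CPM at 2 months (0.38, edgeR FDR 0.0027) with wide ranges. The sum of both miR-29b loci was 228.4 to 307.01 CPM (median 260.2) at 6 months, against 157.6 to 216.8 CPM (median 184.1) at 2 months, with no overlap and a difference of 0.49 (permutation p of 1e-05). Within libraries the log2 ratio of *Mir29c* to *Mir29b-2* had a mean difference of 0.24 and that of *Mir29a* to *Mir29b-1* of 0.14, both overlapping between ages.

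**Figure D3:**
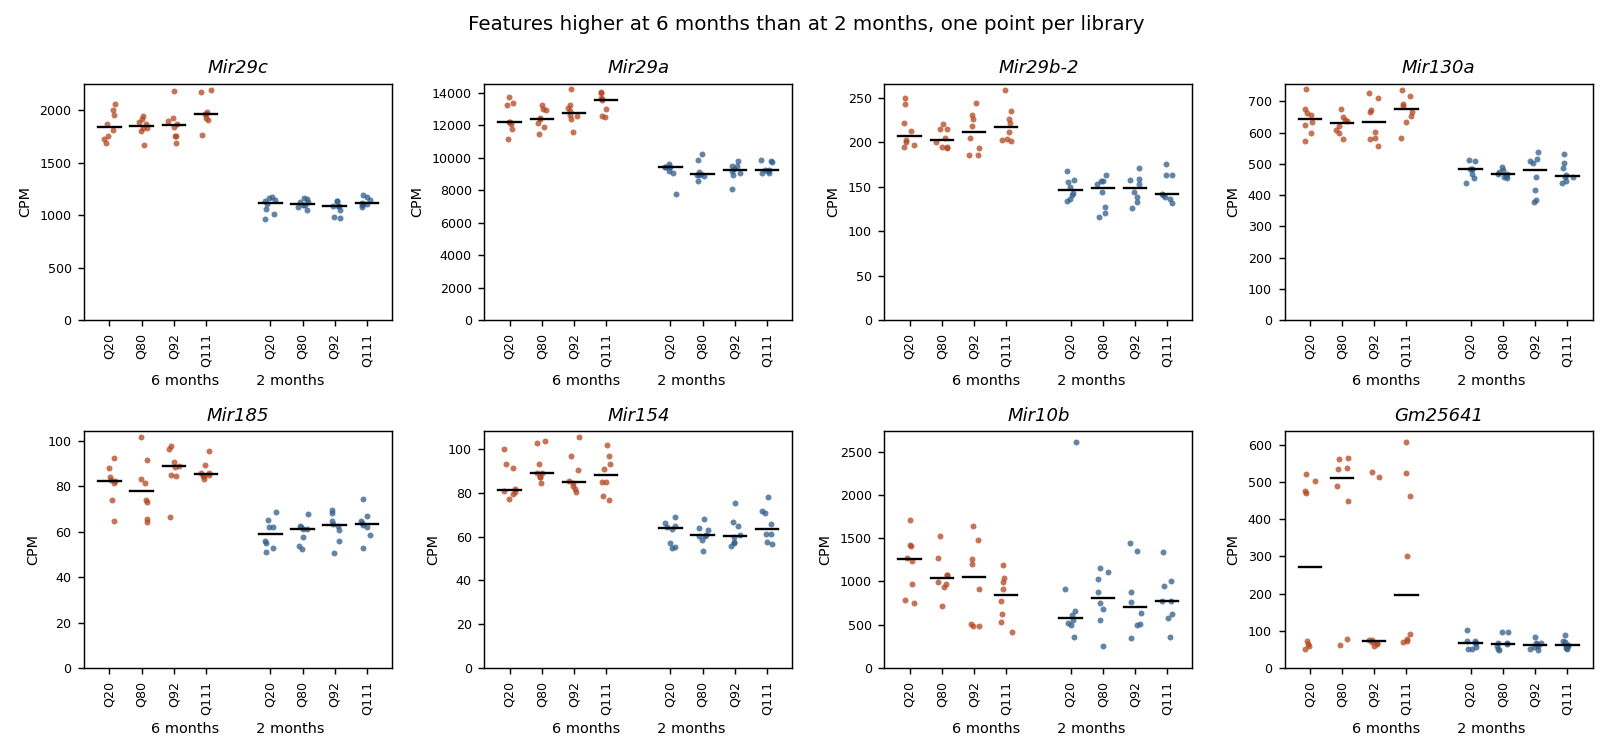
Levels in CPM of 8 features with a fitted log2 ratio of 6 over 2 months above 0, with 1 point for each of the 64 libraries, red for 6 months (left) and blue for 2 months (right), and bars at the median of each line. *Mir29c*, *Mir29a*, *Mir29b-2* and *Mir130a* do not overlap between ages, *Mir10b* overlaps widely, and *Gm25641*, whose direction turns in the RPKM values, splits into a high and a low set at 6 months.

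Among the other named rises, *Mir130a* (chr2:84741115-84741178) measured 558.2 to 738.9 CPM (median 645.4) at 6 months, against 379.1 to 539.7 CPM (median 468.2) at 2 months, a difference of 0.48 ± 0.027 (log2, SE, edgeR FDR 1.8e-23) with no overlap. Its relatives *Mir130b* (-0.33) and *Mir301* (-0.14) share its seed and were lower, but against the higher-numbered 6-month libraries alone both calls were lost (FDR 0.053 and 0.57). *Mir185*, in an intron of *Tango2* and part of the region whose human counterpart is lost in 22q11.2 deletion, measured 64.4 to 101.5 CPM (median 84.4) at 6 months, against 50.5 to 74.2 CPM (median 62) at 2 months, a difference of 0.50 ± 0.037 (log2, SE, edgeR FDR 3.1e-18). *Mir154*, of the imprinted *Dlk1*-*Dio3* region, measured 76.5 to 105.5 CPM (median 87.3) at 6 months, against 53.6 to 78.3 CPM (median 61.2) at 2 months (0.54). The ranges of *Mir185* and *Mir154* overlapped only at their edges. *Mir3057* had medians of 16.4 CPM at 6 months and 10.9 CPM at 2 months (0.57), with overlapping ranges.

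Most of the remaining named rises differed between library blocks or overlapped widely between ages. *Mir16-2*, a copy of the cell-cycle regulator miR-16 in an intron of *Smc4*, had a fitted difference of 0.74, and 1.03 and 0.24 against the lower- and higher-numbered 6-month libraries taken alone. *Mir1249* had medians of 615.8 CPM at 6 months and 444.9 CPM at 2 months (0.46), and 0.58 and 0.28 against the same sets. Summed over *Mir16-1* and *Mir16-2*, which give the same mature RNA, miR-16 was 11525 to 16420.5 CPM (median 13519.9) at 6 months, against 8093 to 11882 CPM (median 10459) at 2 months, 0.37 on the log2 scale (permutation p of 1e-05). *Gm25641* had the largest fitted rise, 2.02 ± 0.267 (log2, SE, edgeR FDR 1.7e-09), with uneven levels between blocks. Its median was 517.9 CPM in the 16 libraries of lane 1 at 6 months, 77.6 and 66.2 CPM in the other 6-month sets, and 67.6 and 58.5 CPM on the 2-month lanes. In the deposited RPKM values of the same libraries the direction turned, with medians of 248892 at 6 months and 263022 at 2 months, so no direction is given for it here. It lies opposite the hairpin of *Mir9-1*, and it is 1 of 26 tested features over a RefSeq hairpin of the other strand, *Mir9-2*, *Mir24-2*, *Mir126a*, *Mir142b*, *Mir216b*, *Mir338* and *Mir451a* among them. The use of strand in counting is not given in the sources used here, so reads of such partners cannot be told apart. *Gm22904* had medians of 14.9 CPM at 6 months and 8.11 CPM at 2 months (1.01) and shares a run of at least 18 nt with 5 other features. Its difference was 1.02 and 0.98 against the lower- and higher-numbered 6-month libraries alone.

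*Mir10b*, from the *Hoxd* cluster and so a mark of hindbrain and spinal identity, measured 419.6 to 1707 CPM (median 994.4) at 6 months, against 251.1 to 2615 CPM (median 716.4) at 2 months, with a difference of 0.47 ± 0.152 (log2, SE, edgeR FDR 0.0056). It ran from 1.07 in Q20 to -0.02 in Q111, and the call was lost without Q20 (FDR 0.16), in males alone (FDR 0.14), with equal weight to each library block (FDR 0.066) and against the higher-numbered 6-month libraries alone (FDR 0.053). Its *Hoxb* relative *Mir10a*, at 526.6 CPM at 6 months and 491.2 CPM at 2 months, did not pass (FDR 0.35). The summed level of the hindbrain list was 818.98 to 2591 CPM (median 1497) at 6 months and 596.1 to 5033 CPM (median 1212) at 2 months. The choroid plexus list spanned 13704 to 22798 CPM (median 17526) at 6 months and 14887 to 36038 CPM (median 18225) at 2 months. Its 7 members had a median fitted difference of 0.54 on the log2 scale, with none called. The medians of the sum went the other way. The part of the hindbrain and choroid plexus lists in the result was not tested. With scores of both lists and of the miR-200 family as covariates the difference of *Mir10b* was 0.22, but *Mir10b* is itself in the hindbrain list, so that this fit is no test of it.

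Several other families moved by smaller amounts. Their counts of calls stand beside 30.8% higher and 32.7% lower over all features, and beside 20.4% and 20.9% for calls that also held against each of the 2 sets of 6-month libraries alone. Of the 10 let-7 loci tested, 6 were higher and 4 lower, with a median of 0.14, and 4 and 3 of these held against both sets. *Mirlet7b* (0.35) and *Mirlet7d* (0.27) stood at the upper end, and *Mirlet7g* (-0.22) and *Mirlet7f-2* (-0.19) at the lower, so the family had no common direction. All 5 members of the miR-23, miR-24 and miR-27 clusters were higher, from 0.12 for *Mir23b* to 0.34 for *Mir24-2*, microRNAs known from vessels and muscle among other tissues, and all 5 held against both sets. The 6 members of the miR-15 and miR-16 family gave 3 rises, all holding against both sets, and no falls. The 6 of miR-30 gave 4 rises, 3 of which held, and 1 fall that held. The broadly abundant miR-181 family gave 2 rises of 6, both under 0.1, and neither held against both sets.

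In the imprinted *Dlk1*-*Dio3* region, whose maternally expressed microRNAs are abundant in brain, 19 of 43 tested members were higher, 10 were lower and 14 did not pass, with a median of 0.06. Over all features 30.8% were higher and 32.7% lower. In the region 14 of the higher and 5 of the lower ones held against both sets, beside 20.4% and 20.9% of all features. The abundant *Mir127* (0.09) and *Mir434* (0.13) were slightly higher, the call of *Mir127* being lost against the higher-numbered set (FDR 0.45), and *Mir341* (0.44) and *Mir381* (0.42) more so, while *Mir485* (-0.29) and *Mir496a* (-0.31) were lower. Other imprinted loci gave 3 falls of 9, *Mir296*, *Mir298* and *Mir3099*. The *Mir17* to *Mir92* clusters and their paralogs gave 3 rises, all of the *Mcm7* intron cluster (*Mir106b*, *Mir93* and *Mir25*), and 3 falls, all of the other 2 clusters, and these 6 held against both sets.

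Lists that mark other cell types came next. Of the 3 oligodendrocyte loci, *Mir338* was higher (0.12, edgeR FDR 0.0011), while both *Mir219a* loci did not pass. Microglial and immune microRNAs split, with *Mir155*, *Mir21a* and *Mir142b* higher and *Mir146b*, *Mir146* and *Mir150* lower. Of these 6 calls that of *Mir146b* alone held against both sets of 6-month libraries. *Mir146b*, which restrains inflammatory signalling, had the largest of these differences, with medians of 386.6 CPM at 6 months and 559.3 CPM at 2 months (-0.46, edgeR FDR 9.8e-17). The erythroid *Mir451a* (0.36) and *Mir486* (0.14) were higher and *Mir144* (-0.18), the neighbour of *Mir451a*, was lower, with a summed level of 15827 to 21775 CPM (median 18950.1) at 6 months and 12732 to 20803 CPM (median 17810.5) at 2 months. The call of *Mir144* was lost against the higher-numbered set (FDR 0.13). Of the 3 vascular loci tested, *Mir126a* of endothelium was higher by 0.07, while *Mir143* and *Mir145a* did not pass. The 3 liver loci tested did not pass. Of the 6 tested muscle loci 2, *Mir499* and *Mir206*, were higher, beside 30.8% over all features. Against the higher-numbered set the calls of *Mir126a*, *Mir499* and *Mir206* were lost (FDR 0.066, 0.21 and 0.81). *Mir34a* was higher by 0.22 and *Mir449a*, found in ciliated cells and here at 1.79 CPM at 6 months and 4.27 CPM at 2 months in the median, was lower (-1.01 on the log2 scale, edgeR FDR 1.2e-08). At so few CPM the size of the *Mir449a* ratio is uncertain. The other 2 tested members of the list of *Mir34a* and *Mir449a*, *Mir34b* and *Mir34c*, did not pass. Their estimates were positive, at 0.46 and 0.54 against the lower-numbered and 0.23 and 0.24 against the higher-numbered 6-month libraries.

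**Figure D4:**
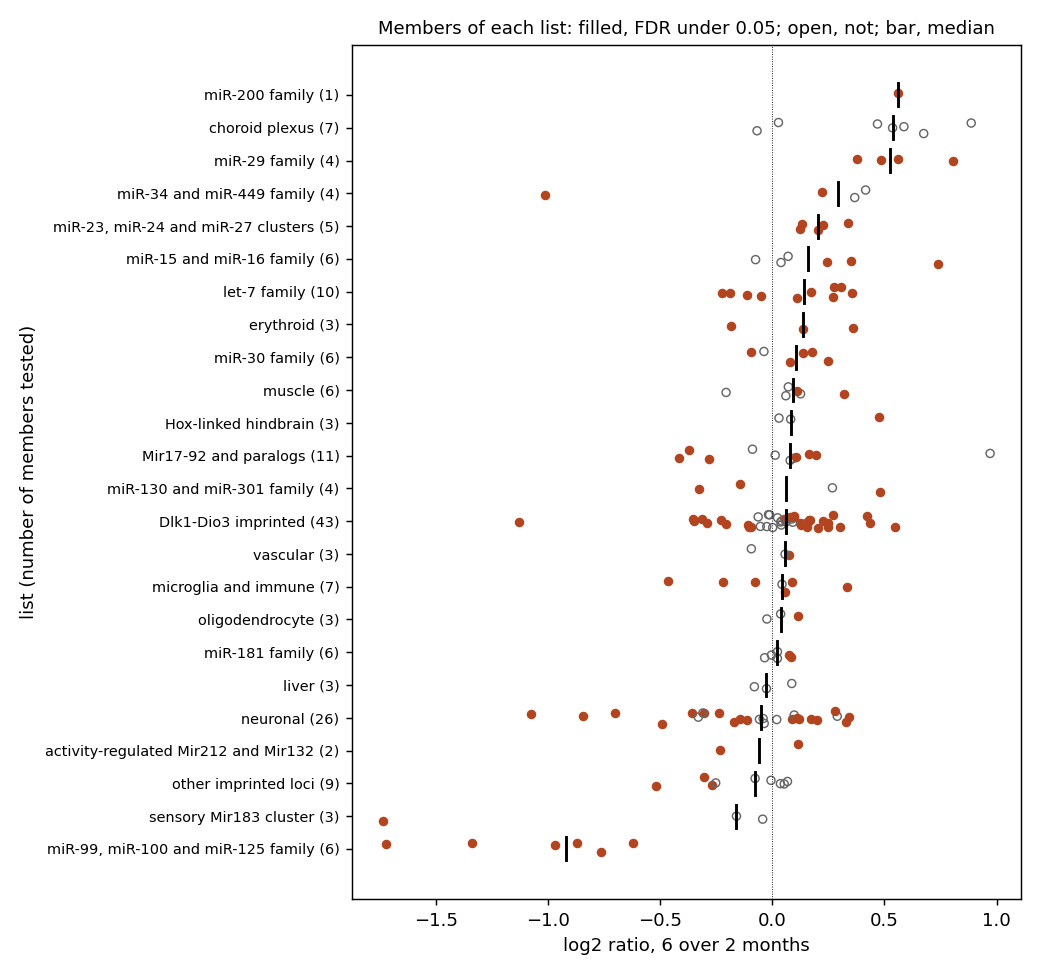
Log2 ratio of 6 over 2 months for each tested member of 24 lists (1 point per feature), filled where FDR<0.05 and open otherwise, with bars at the list median and lists ordered by it. All 6 points of the miR-99, miR-100 and miR-125 family lie below -0.6 and all 4 of the miR-29 family above 0.3, while most other lists straddle 0.

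The difference between ages was then taken within each line. At FDR<0.05, 41.8% of the 416 features differed in Q20, 44.5% in Q80, 35.6% in Q92 and 36.3% in Q111. Of the features called over the 4 lines, 247 (93.6%) had the same sign in all 4. These calls came from the same 4 lines pooled, so the common sign is partly fixed by the choice and is no independent support. *Mir99b* had differences of -1.30, -1.37, -1.39 and -1.29 in Q20, Q80, Q92 and Q111, and *Mir29c* of 0.78, 0.78, 0.82 and 0.84. These per-line values lay within a few standard errors of each other for both microRNAs.

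**Figure D5:**
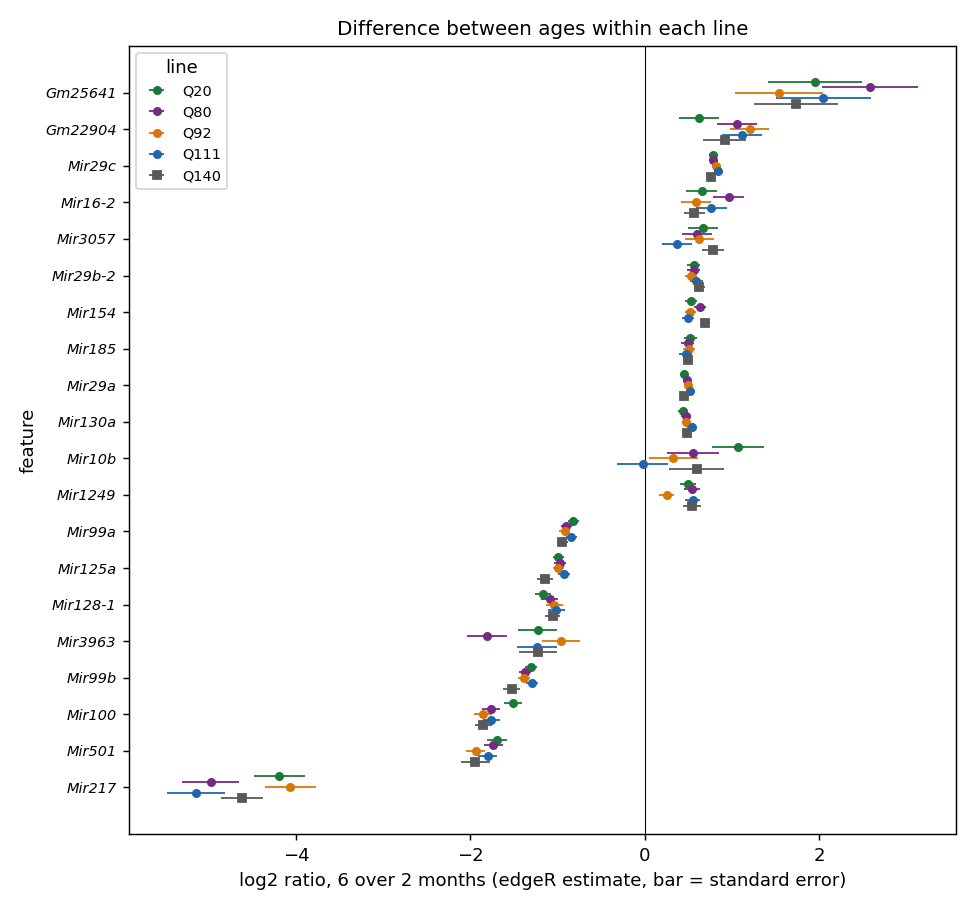
Log2 ratio of 6 over 2 months within each line for 20 annotated features named by rule, as edgeR estimates with standard errors, circles for Q20, Q80, Q92 and Q111 and squares for Q140, which was fitted apart. Apart from *Mir10b*, which ranges from 1.07 in Q20 to -0.02 in Q111, all 5 lines lie on the same side of 0 for every feature shown. The features were chosen by their difference over Q20, Q80, Q92 and Q111 pooled.

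No feature passed FDR<0.05 for a difference between lines in the age effect (0 of 416, 0%, edgeR F test over the 4 lines), where 36 had an unadjusted p under 0.05 and the lowest FDR was 0.13, for *Mir205*. DESeq2 also called 0. A linear dependence of the age effect on CAG length gave 0 calls (0%), with 33 unadjusted and a lowest FDR of 0.16 for *Mir330*, *Mir669o* and *Mir10a*, and DESeq2 called 0. The slope of *Mir10a* was -0.69 ± 0.21 log2 per 100 CAG, with 0.45 in Q20 and -0.19 in Q111. For *Mir99b* the slope was -0.03 ± 0.10 and for *Mir29c* 0.06 ± 0.06, both small beside the age differences themselves. Between sexes the age effect also gave 0 calls (0%), with 41 unadjusted, a lowest FDR of 0.19, and 0 by DESeq2. These tests do not show that the effects were equal. They bound them only as far as the standard errors given. Lines were also spread unevenly over the 6-month blocks. Q92 had 6 libraries in the higher-numbered set and 2 in that of lane 1, and Q80 had 1 and 6. Sexes were uneven over these blocks too. Line, CAG length and sex are therefore partly mixed with block in these tests and in the per-line values. Each CAG length also came from a single line, so the slopes do not separate repeat length from line.

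The Q140 line, whose 16 libraries of 6 and 2 months entered none of the fits above, was tested over the same 416 features. At FDR<0.05, 36.5% of these were called, 77 higher and 75 lower at 6 months. Of the Q140 calls 96.7% were also calls of the 4 lines, of which they make up 55.7%, and all features called in both had the same direction. *Mir217* was -4.62, *Mir501* -1.94, *Mir100* -1.85, *Mir99b* -1.53, *Mir128-1* -1.06, *Mir29a* 0.45 and *Mir29c* 0.76 on the log2 scale in Q140. All 21 features whose libraries did not overlap in the 4 lines did not overlap in Q140 either, where 8 libraries stood at each age and 49 of the 416 features (11.8%) did not overlap. The Q140 libraries of the 2 ages also fell in separate ranges of library numbers, so age and library block cannot be told apart in them either.

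Age 10 months gives a view of the same microRNAs under other library numbers. The 31 libraries of the 4 lines at 10 months were run on lanes 4, 5 and 6, and are described here without a test. The features below were picked from those already described, and the share over all features is not given. The 10-month libraries also have a range of library numbers of their own, so age and block cannot be told apart in them either. *Mir217* had medians of 24.9, 0.677 and 0.73 CPM at 2, 6 and 10 months, and *Mir501* of 194.7, 57.6 and 50.7 CPM. The medians of *Mir100* were 7038, 2080.3 and 2170.3 CPM, those of *Mir99b* 27809.7, 11024 and 11070.1 CPM, and those of *Mir128-1* 19103, 8957 and 9154 CPM. In these 5 the 10-month medians lay nearer to those of 6 months than to those of 2 months. *Mir29a* (9216, 12763 and 13529 CPM) and *Mir29c* (1105, 1882 and 1957 CPM) did likewise on the higher side. *Mirlet7c-1*, at 4549.6, 5623 and 4715 CPM, and *Gm25641*, at 63.9, 196.8 and 57.6 CPM, lay nearer to 2 months at 10 months.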

How the data were processed

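The authors isolated total RNA with the miRNeasy kit and sequenced strand-specific single-end 36-base reads on a HiSeq 2000. By their methods STAR (mm10) and HTSeq gave the alignments and counts; CASAVA 1.8.2 is listed in the submitters' processing notes. The deposited expected counts, made by the authors, hold 1626 Ensembl transcripts, and 22.94% of values were fractional, so shared reads were divided by a step not given in the sources used here. The authors also deposited RPKM values, used only as an alternative. Symbols, positions and host genes came from GENCODE M21 (GRCm38) for 1228 features, and the rest held 0.668% of counts. Counts were rounded, and the 416 features passing edgeR's expression filter were tested with edgeR 4.0.16 in R 4.3.3 (quasi-likelihood, TMM scaling, line and sex as covariates, two-sided, Benjamini-Hochberg FDR under 0.05). Libraries with standardized connectivity under -5 within their age were left out of fits. DESeq2 1.42.0 and limma 3.58.1 (log2 of RPKM + 1) gave alternatives. Named by rule, at a mean of at least 10 CPM, were the 12 largest rises, the 12 largest falls and the 3 lowest FDR in each direction. Features named outside it (*Mir216a*, *Mir216b*, *Mir375*, *Mir96*, *Mir92b*, *Mir351*, and others given as list members, cluster neighbours or contrasts) were chosen after their values were seen. The libraries and lists were chosen with earlier results of these data known. In simulated counts for the comparison of ages (416 features), 70 of 100 with a true log2 change of 0.3, 95 of 100 with a change of 1 and 2 of 216 with none were called. The simulated counts held no differences between library blocks, so these rates do not cover calls that come from blocks. Each group holds libraries of separate mice, and no pair of a group agreed within sampling noise (chi-square per degree of freedom at least 16.5 over 224 pairs).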

Additional observations from a re-analysis of the deposited data

Results flagged for a closer look

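Levels of the named features were screened for libraries far from the other 7 of their line and age. Over 24 features in 8 groups of 8 libraries each there were 19 such values, where chance alone gives about 5%, or 9.6. Features without annotation and *Mir3057* took many of them. *Mir3057* was low in Q20 F3 at 6 months (7.33 CPM, others 16.2 to 20), high in Q20 M4 at 2 months (20.4 CPM, others 7.93 to 13.4) and low in Q92 F1 at 2 months (8.15 CPM, others 9.92 to 11.2). *Mir217* was high in Q111 F1 at 6 months (2.15 CPM, others 0 to 0.631). *Gm22904* was high in Q111 F3 at 2 months (11.4 CPM, others 5.65 to 8.38). *Mir185* was low in Q92 F3 at 6 months (66.5 CPM, others 84.4 to 97.7). ENSMUST00000175045 was high in Q80 F1 at 6 months (395.4 CPM, others 68 to 200.1) and high in Q111 F4 at 6 months (422.3 CPM, others 97.6 to 213.4). ENSMUST00000175620 was high in Q80 F1 at 6 months (295.8 CPM, others 81.7 to 164.4), high in Q80 M5 at 2 months (619.8 CPM, others 247.9 to 408.4), high in Q92 M4 at 2 months (765.4 CPM, others 218.5 to 440.7) and high in Q111 F4 at 6 months (285.3 CPM, others 67.5 to 153.4). ENSMUST00000175457 was high in Q20 M4 at 2 months (132.6 CPM, others 64.8 to 95.1) and high in Q111 M2 at 2 months (114.0 CPM, others 57.7 to 77.6). *Mir10b* was high in Q20 M4 at 2 months (2615 CPM, others 363.6 to 910.4). *Gm25641* was high in Q20 M3 at 2 months (101.2 CPM, others 51.4 to 73.4). *Mir29a* was low in Q20 M4 at 2 months (7754 CPM, others 9051 to 9616). *Mir100* was high in Q20 M4 at 2 months (11171 CPM, others 5205 to 8012). *Mir501* was low in Q92 F4 at 6 months (28.5 CPM, others 51.5 to 70.2). The library Q20 M4 at 2 months, which was left out of the fits, accounts for 5 of these values.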

How the results depend on the processing

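Every alternative for the comparison of ages kept its count of calls within 1.5 times of that reported. The count was lowest with the higher-numbered 6-month libraries alone, at 75% of the reported number, and highest with limma on log2(RPKM + 1), at 112%. Of the reported calls, 256 had the same sign against the lower-numbered and the higher-numbered 6-month libraries, and 85 higher and 87 lower ones were called against both. Both sets were part of the fit that gave the calls and shared the 2-month libraries, so these counts are no independent support. Over males alone the split was 84 higher and 122 lower. Males and females were spread unevenly over the 6-month library blocks, so fits of a single sex also differ in their blocks. Among the values of the 24 named features under alternatives, all but 9 kept direction and call. *Gm25641* reversed with limma on log2(RPKM + 1), at -0.089 on that scale, and its rise was 0.060 (FDR 0.66) with the higher-numbered libraries alone. *Mir10b* lost its call under 4 alternatives, and ENSMUST00000176833 under 3, among them females alone (-0.29, FDR 0.47). *Mir10b* had 0.55 (FDR 0.053) against the higher-numbered libraries. The cause was not tested. With the replicate number as a replicate block, 129 features were higher and 130 lower, 258 of them among the reported calls, 139 differed in Q140, and 1 feature, *Mir205*, passed for a difference between lines (FDR 0.013, against 0.13 without the block). Replicate numbers name different mice and did not pair them: over 28 same-numbered pairs the correlation of deviations had a median of 0.028 (-0.28 to 0.36), and 11 exceeded 0.1. With all 64 libraries kept, 133 features were higher and 136 lower. Precision is limited for features of a few CPM, such as *Mir217* at 6 months, and by reads divided among the 125 tested features that share at least 18 nt with another.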
